A study of Mus musculus with 4 samples.

Results

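The genes described are 9 that encode proteins which bind the myosin thick filament, cross-link it at the M-band or build the intermediate filaments of muscle and mesenchyme: Mybpc1, Mybpc2, Mybpc3, Mybph, Myom1, Myom2, Des, Synm and Vim. They were chosen by name, as every probe set whose platform symbol is 1 of these genes only, which gave 18 probe sets of 9 genes among the 18193 genes named on the array. Their transcripts were read in ventricular tissue of mouse embryos at embryonic day 17.5, on 2 arrays from wild-type embryos (WT) and 2 arrays from HDAC2-deficient littermates (KO), all from a C57BL/6 X SV129 background. RNA was pooled from 2 animals for every WT array and from 3 for every KO array, and labelling started from 6 µg. The HDAC2 allele, the promoter of any Cre and the embryos' sex are not stated in the sources read. The source field of the KO samples also reads wt, so the titles set the groups and Hdac2 was read first.

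In striated muscle, myosin-binding protein C wraps the thick filament in regular stripes and tunes how myosin heads meet actin. Each muscle type has its own paralogue: Mybpc3 is the cardiac form, Mybpc1 the slow skeletal form and Mybpc2 the fast skeletal form, while Mybph is a shorter relative of skeletal muscle. Myomesins (Myom1, Myom2) hold thick filaments in register at the M-band, and desmin (Des) with its partner synemin (Synm) links neighbouring myofibrils to each other and to the cell membrane. Vimentin (Vim) forms the intermediate filaments of fibroblasts, endothelium and other mesenchymal cells, and is not a filament of mature heart muscle cells.

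The arrays were alike in detection, with Present calls (the MAS5 verdict that a probe set lies above its mismatch background) on 42.4% to 43.7% of probe sets. Hdac2, the gene named in the titles, read 1189 and 1421 in the WT pools against 31.4 and 21.0 in the KO pools at its brightest probe set. KO, with both arrays Absent there, was lower by at least 50.6-fold. Such bounds come from the signals and leave out the spread between arrays. The titles and the Hdac2 signals point the same way. Whether these probes lie in a stretch that the allele alters is not stated. The 9 cardiomyocyte markers were Present on all arrays at their brightest tested probe sets. Their summed signals there were 91480 to 93260 in WT against 89580 to 93420 in KO. At those probe sets 5 differences were negative and 4 positive, and 0 were called in limma. Dimmer probe sets of Myh6 (-1.455, adjusted p = 0.00977) and Tnnt2 (-0.48, adjusted p = 0.0452) were called lower, as 0.96% of all tested probe sets were. Transcripts of the sex chromosomes differed with genotype: Xist, made from the inactive X, read 80.5 and 90.1 in the WT pools against 548 and 794 in the KO pools, and the Y-linked Eif2s3y read 431 and 449 in the WT pools against 240.2 and 126 in the KO pools (adjusted p = 8.10e-07 and 0.0105 in limma). At another tested Xist probe set both WT pools were Absent, at 1.3 and 6.1. Both KO pools were Present there, at 413.7 and 797.1, so KO was higher by at least 108-fold. No member gene lies on X or Y, and the part of sex in the results was not tested. Mybpc1 lies on chromosome 10, as Hdac2 does, and the part of this in its result was not tested. The 3′ over 5′ signal of the actin control, which reflects how intact the RNA was, stood at 1.85 and 2.32 in the WT pools against 2.75 and 2.42 in the KO pools. That of the Gapdh control stood at 0.844 and 0.949 in the WT pools against 1.18 and 1.01 in the KO pools. Both were higher in KO, and the part of this in the results was not tested.

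A probe set was tested where both WT or both KO arrays called it Present, which held for 12 of the 18 member probe sets and 7 of the 9 genes. The exceptions were Mybpc2 and Mybph, which had no Present call on any array. Of the 12 tested, 2 were lower in KO at an adjusted p under 0.05 in limma and 0 were higher, where 0.96% of all 19065 tested probe sets were called lower and 0.383% higher. Both belonged to Mybpc1, so 1 of the 7 tested genes was called. The median difference over the 12 was -0.36 on the log2 scale, beside 0.014 over all tested probe sets.

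**Figure D1:**
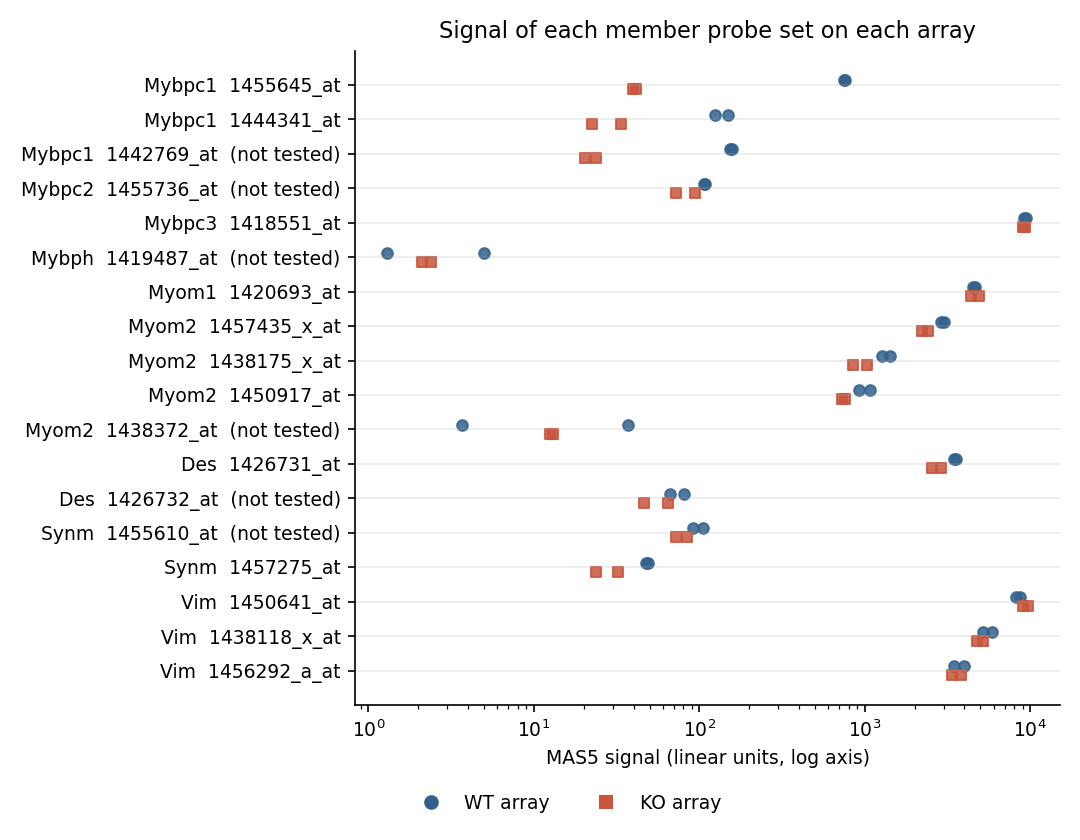
MAS5 signal (log axis) of the 18 member probe sets on each of the 2 WT arrays (circles) and 2 KO arrays (squares), with the untested probe sets marked. The 3 Mybpc1 rows show KO squares far to the left of the WT circles, at 39.7 and 41.7 against 756 and 751 at the brightest probe set, while Mybpc3 and Myom1 overlap.

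Mybpc1 showed the largest difference of the 7 tested genes. Its brightest probe set, 1455645_at, read 756 and 751 in the WT pools against 39.7 and 41.7 in the KO pools. The 4 values fell into separate pairs whose replicates nearly coincided, and KO retained 5.40% of the WT signal. This was an 18.5-fold fall (-4.21 ± 0.17, moderated SE, n = 2 arrays per group, adjusted p = 4.35e-09 in limma), the probe set at rank 6 by p of all those tested. The KO signals were still called Present, at detection p-values of 0.0303 and 0.0239, against 0.000244 on both WT arrays, and the highest detection p of any Present call was 0.0483.

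The other Mybpc1 probe sets had the same direction at a lower signal. Probe set 1444341_at read 149.7 and 124 in the WT pools against 22.4 and 33.5 in the KO pools, where it was Absent on both arrays. By these signals alone the fall was at least 4.97-fold (fitted difference -2.31 ± 0.28, 95% interval -2.92 to -1.71, adjusted p = 0.000685 in limma). The probe set 1442769_at read 153 and 157 in the WT pools against 23.6 and 20.5 in the KO pools, but was never called Present and was not tested. The call at 1444341_at was lost in limma when all probe sets were fitted (adjusted p = 0.0992) or when the variance trend was dropped (adjusted p = 0.0739). The brightest probe set kept its call under both. Its difference ranged from -4.25 to -2.97 over 14 alternatives, some of which, such as other filters or variance models, cannot change a difference.

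Mybpc3, the cardiac paralogue whose mutations are known from hypertrophic cardiomyopathy, did not pass the test. It read 9192 and 9365 in the WT pools against 9307 and 9099 in the KO pools. The groups overlapped, and the difference was -0.012 ± 0.081 (95% interval -0.19 to 0.16, adjusted p = 0.960 in limma). The sign of this near-zero value turned without WT replicate 2 (0.0016) and without KO replicate 2 (0.0045).

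The fast skeletal form and protein H gave no usable level. Mybpc2 read 109 and 106 in the WT pools against 94.2 and 72.2 in the KO pools, Absent on every array. Mybph read 5.0 and 1.3 in the WT pools against 2.4 and 2.1 in the KO pools, also Absent throughout. Both have 1 probe set, and no fold is given for either. Among the skeletal paralogues only Mybpc1 was therefore above background in the WT ventricle samples, by these probe sets.

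The sequences before the annotated starts of the 4 myosin-binding genes are shown because this paralogue family holds both the gene with the largest difference and the one with the smallest. They are from RefSeq (GRCm38.p6), which held a promoter for 8 of the 9 members, and each is written 5′ to 3′ on the strand of its gene, ending where the outermost annotated transcript begins. Capitals mark E-boxes (CANNTG, the same on both strands), the motif bound by basic helix-loop-helix factors such as the myogenic ones. The stretches are chr10:88605230-88605402 (minus strand) for Mybpc1, chr7:44524716-44524919 (minus strand) for Mybpc2, chr2:91117894-91118113 (plus strand) for Mybpc3 and chr1:134193198-134193417 (plus strand) for Mybph.
Mybpc1: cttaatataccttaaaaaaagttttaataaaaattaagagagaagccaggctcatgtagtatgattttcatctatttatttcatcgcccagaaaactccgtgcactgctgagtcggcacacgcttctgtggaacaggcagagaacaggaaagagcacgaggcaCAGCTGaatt
Mybpc2: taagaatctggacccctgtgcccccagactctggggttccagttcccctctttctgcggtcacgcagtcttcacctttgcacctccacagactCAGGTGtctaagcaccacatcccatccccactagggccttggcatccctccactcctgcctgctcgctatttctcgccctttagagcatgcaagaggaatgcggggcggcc
Mybpc3: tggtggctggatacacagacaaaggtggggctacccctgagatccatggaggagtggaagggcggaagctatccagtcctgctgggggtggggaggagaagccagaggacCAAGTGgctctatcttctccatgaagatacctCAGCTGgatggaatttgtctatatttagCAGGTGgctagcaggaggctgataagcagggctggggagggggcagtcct
Mybph: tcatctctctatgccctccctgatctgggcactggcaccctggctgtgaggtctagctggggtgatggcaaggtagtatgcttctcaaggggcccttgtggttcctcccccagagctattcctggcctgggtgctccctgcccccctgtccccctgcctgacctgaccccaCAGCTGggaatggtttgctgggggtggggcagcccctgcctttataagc

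Motifs were searched on both strands in the 250 bases before the start in each RefSeq window. The window of Myom1 lies inside its annotated gene, past the outermost start, and was counted as the table gives it. An E-box lay in 7 of the 8 member windows, all but that of Vim, against 66.2% of 32851 promoters, and its form CAGCTG lay in 4 of 8 (Mybpc1, Mybpc3, Mybph and Des), against 13% of all. Mybpc3 had 3 E-boxes, Mybpc2 and Mybph 1 each, and Mybpc1 2, the second of them past the outermost start and so not printed. A MEF2 site lay in the Mybpc3 promoter alone of the 8, between its CAGCTG and its last E-box, against 2.92% of all promoters. A CArG box, the site of serum response factor, lay in that window of Myom1 (1.47% of all), and TATAAA in the promoters of Mybph and Vim (12.4% of all). The Mybpc1 and Mybpc3 windows thus both hold CAGCTG, and these matches are letters in a window, not measured sites.

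**Figure D2:**
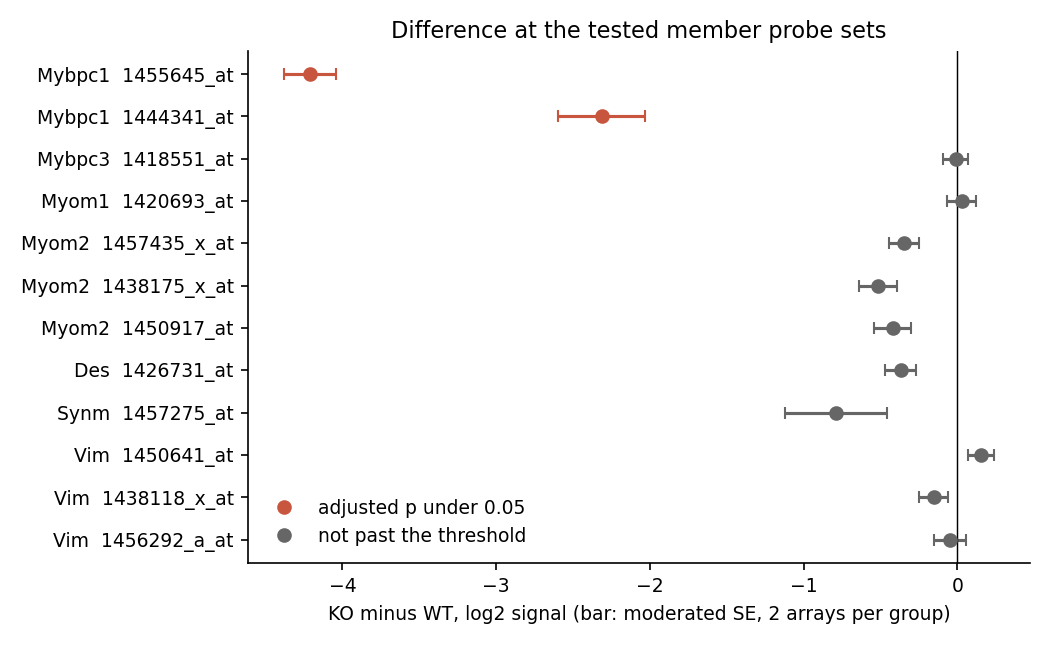
KO minus WT difference in log2 signal at the 12 tested member probe sets, with bars for the moderated SE of 2 arrays per group. The 2 coloured points, both of Mybpc1, stand at -4.21 and -2.31, while the other 10 lie between -0.79 and 0.16.

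The fall of Mybpc1 was read beside the markers of skeletal muscle, a tissue outside the labelled one. Of the 21 genes on that marker list, 14 were tested, all 14 differences were below 0 and 12 were called lower. Of all 10184 tested genes, 0.815% were called lower at their brightest probe set. The median fitted difference of the 14 was -4.14 (-3.82 with the 8 that were Absent on both KO arrays set to their lower bound). The summed signal of the 21 was 14670 and 13640 in the WT pools against 1834 and 1814 in the KO pools. None of the 21 read 0, 14 were Present on both WT arrays and 5 on both KO arrays. The defining transcription factors Myod1 (57.6 and 49.5 in WT, 26.3 and 27.0 in KO) and Myog (85.2 and 105 in WT, 18.0 and 6.9 in KO) were Absent on all 4 arrays at their brightest probe sets. In pooled tissue, fewer cells of a type and less RNA per cell cannot be told apart, and the part of this list in the Mybpc1 result was not tested.

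Mybpc1 sat inside the range of those markers. Both ends of the tested markers were Absent in KO, so only bounds from the signals can be given there. Tnnc2, fast troponin C, was at least 156-fold lower. The acetylcholine receptor subunit Chrna1 was at least 1.70-fold lower by signal but not past the threshold (95% interval of its fitted difference -1.40 to -0.13). With the 8 markers Absent on both KO arrays at their bound, 6 of the 14 differed by more than Mybpc1 at 1455645_at. The slow troponin Tnnt1, which like Mybpc1 belongs to slow fibres, fell from 794 and 717 to 429.5 and 390.4 (-0.88 ± 0.13, adjusted p = 0.00355 in limma). Tnnt1 thus differed by less than Mybpc1. The bone and cartilage markers were lower too, with 3 of 5 tested genes called lower, where 0.815% of all tested genes were. Their summed signals were 450.5 and 425 in the WT pools against 161 and 173 in the KO pools.

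**Figure D3:**
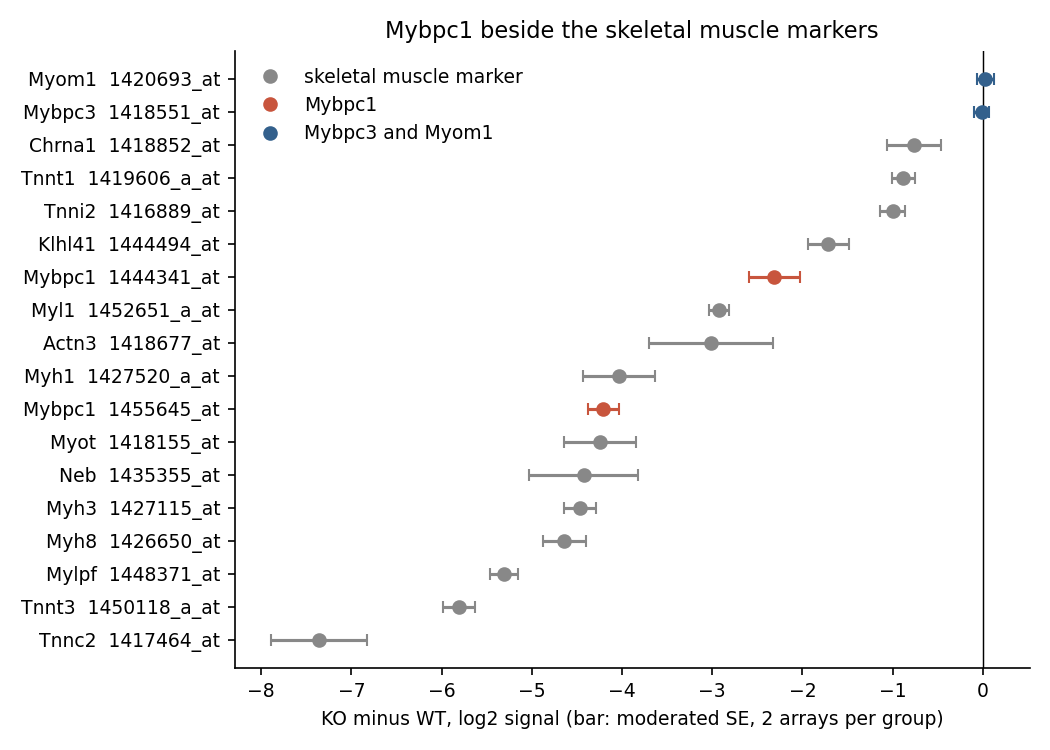
KO minus WT difference in log2 signal (bars: moderated SE) for the 14 tested skeletal muscle markers in grey, both tested Mybpc1 probe sets in red and Mybpc3 and Myom1 in blue. Fitted values of genes Absent in KO are not bounds. Mybpc1 lies at -4.21 and -2.31 among markers with fitted values from -7.36 to -0.76, and the blue points lie close to 0.

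The genes nearest to Mybpc1 in their pattern over the 4 arrays were mostly myosin heavy chains. Nearness was the root mean square difference of log2 signals, each gene centred on its own mean, as a description over 4 arrays. The embryonic chain Myh3 was nearest at 0.145, with signals of 760.1 and 862 in the WT pools against 35.4 and 37.8 in the KO pools. Myh1, an adult fast chain, followed at 0.151, the perinatal chain Myh8 at 0.356, the carbonic anhydrase Car3 at 0.363 and the collagenase Mmp13 at 0.511. Myh1 and Mmp13 were Absent on both KO arrays, at least 15.2-fold and 15.0-fold lower, so their distances and ranks rest on KO signals not above background. All 5 were called lower in KO, and the 3 myosins are on the skeletal marker list. For Synm at 1457275_at the nearest was Rab40b (0.0271) and for Myom2 at 1438175_x_at Zfp219 (0.020), neither of them past the threshold (adjusted p = 0.194 and 0.172 in limma). None of the 15 nearest genes was another member.

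Of the 2 myomesins, Myom1 did not differ beyond its spread. It read 4611 and 4479 in the WT pools against 4891 and 4379.5 in the KO pools. The KO arrays lay on either side of both WT arrays, with a difference of 0.026 ± 0.093 (95% interval -0.17 to 0.23, adjusted p = 0.923 in limma). The sign turned when arrays were centred on the median (-0.0047) and without KO replicate 1 (-0.053).

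Myom2, the myomesin of adult heart and fast fibres, was lower in KO on all arrays at 3 probe sets but did not pass the test. Its brightest, 1457435_x_at, read 2869 and 3026 in the WT pools against 2226 and 2406 in the KO pools (-0.35 ± 0.098, adjusted p = 0.110 in limma). Probe set 1438175_x_at read 1263 and 1414 in the WT pools against 1025 and 848 in the KO pools (-0.52 ± 0.12, adjusted p = 0.0629), and 1450917_at read 926 and 1074 in the WT pools against 729.9 and 760.4 in the KO pools (-0.42 ± 0.12, adjusted p = 0.117). At each of the 3 both KO values lay below both WT values, which 22.5% of all tested probe sets also show. These probe sets share 1 transcript, and the x in 2 of the names marks probes that may match other transcripts. The dim 1438372_at, at 3.7 and 36.9 in the WT pools against 12.6 and 13.0 in the KO pools, was Absent on every array. Without KO replicate 1, 1438175_x_at passed (-0.66, adjusted p = 0.0117), and it also passed with centring on the median (-0.55, adjusted p = 0.0410).

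Desmin had a difference of like size. Des read 3441 and 3540.1 in the WT pools against 2875.5 and 2536.5 in the KO pools at 1426731_at, so both KO arrays were below both WT arrays. The KO signal was 77.4% of WT (-0.37 ± 0.099, 95% interval -0.58 to -0.16), and the adjusted p of 0.0928 in limma missed the threshold. It passed without KO replicate 1 (-0.46, adjusted p = 0.0224), and over all alternatives the difference ranged from -0.46 to -0.28 and the adjusted p from 0.0224 to 0.387. The second Des probe set, 1426732_at, read 66.9 and 81.0 in the WT pools against 64.8 and 46.0 in the KO pools, Present on 1 array only, and was not tested. Desmin and Myom2 are also made in skeletal muscle, whose summed marker signals are given above, and desmin in smooth muscle. The smooth muscle markers summed to 9650 and 9321 in the WT pools against 10440 and 10980 in the KO pools. Most of that sum was Acta2, at 8739 and 8522 in WT against 9590 and 10157 in KO. Of the 4 tested smooth muscle markers, 2 differences were positive and 2 negative, and 0 were called. The part of both tissues in the Des and Myom2 differences was not tested.

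Synemin, which assembles with desmin, was dim. Synm read 47.6 and 48.8 in the WT pools against 32.4 and 23.9 in the KO pools at 1457275_at, Present on all 4 arrays (-0.79 ± 0.33, adjusted p = 0.277 in limma). Both KO values lay below both WT values, but the WT pair differed little and the KO pair by much more. At 1455610_at it read 91.8 and 106 in the WT pools against 71.8 and 84.1 in the KO pools, with 1 Present call in WT and none in KO, and this probe set was not tested. In all 14 alternatives the tested difference stayed below 0 without passing, from -1.01 to -0.29. Some of the 14, such as other filters or variance models, cannot change a difference.

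Vimentin did not pass, and its 3 probe sets disagreed in sign. The brightest, 1450641_at, read 8621 and 8188 in the WT pools against 9063 and 9656 in the KO pools (0.16 ± 0.084, adjusted p = 0.397 in limma), with both KO arrays above both WT arrays, as at 25% of all tested probe sets. At 1438118_x_at it read 5836 and 5215 in the WT pools against 4754.5 and 5170.4 in the KO pools (-0.15 ± 0.094, adjusted p = 0.454), with both KO arrays below. At 1456292_a_at the groups overlapped, at 3963 and 3467 in the WT pools against 3368 and 3814 in the KO pools (-0.049 ± 0.10, adjusted p = 0.862). No direction can be given for Vim from these probe sets. The fibroblast markers, other genes of mesenchymal cells, had summed signals of 18000 and 18220 in the WT pools against 15210 and 16370 in the KO pools, with 2 of 8 called lower (Col1a1 and Col1a2), where 0.815% of all tested genes were. Of these 8, 4 differences were positive and 4 negative, among them Pdgfra at 0.52 ± 0.17 (adjusted p = 0.163). The endothelial markers summed to 3067 and 3068 in the WT pools against 3105 and 3275 in the KO pools, with 0 of 7 called in limma (1 at unadjusted p under 0.05). Their part in the Vim values was not tested.

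Apart from Mybpc1, the tested members leaned lower in KO without passing. Of these 10 probe sets, 5 were lower at an unadjusted p under 0.05, where 8.23% of all tested probe sets were, and 6 had both KO arrays below both WT arrays, where 22.5% did. The 5 are the 3 of Myom2 and 1 each of Des and Synm, so they represent 3 genes. The brightest cardiac members, Mybpc3 and Myom1, were not among them.

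The ratio of 1 gene to another within an array does not depend on how the array was scaled, so paralogues and partners were compared in this way. The log2 ratio of Mybpc1 to Mybpc3 was -3.61 and -3.64 in the WT pools and -7.87 and -7.77 in the KO pools. The ratio was 18.4-fold lower in KO (-4.20), with the groups far apart. The log2 ratio of Myom2 to Myom1 was -0.68 and -0.57 in the WT pools and -1.14 and -0.86 in the KO pools, a difference of -0.37. That of Synm to Des was -6.18 and -6.18 in the WT pools and -6.47 and -6.73 in the KO pools (-0.42), and turned to 0.077 with 64 added to each signal. The ratio of Vim to Des was 1.33 and 1.21 in the WT pools against 1.66 and 1.93 in the KO pools (0.52). It used Vim at 1450641_at, where the Vim difference was positive (0.16). At 1438118_x_at and 1456292_a_at that difference was negative (-0.15 and -0.049), and ratios with them were not formed. The direction and size of this ratio may thus depend on the Vim probe set. At the probe sets used, the groups overlapped in none of the 4 pairs. Among all tested single probe sets, 22.5% had both KO arrays below both WT arrays and 25% had both above. Each ratio gave p = 0.333 in a two-sided exact permutation test, the smallest that 2 arrays against 2 allow. Ratios to Mybpc3 were not formed for Mybpc2 and Mybph, which were not tested.

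**Figure D4:**
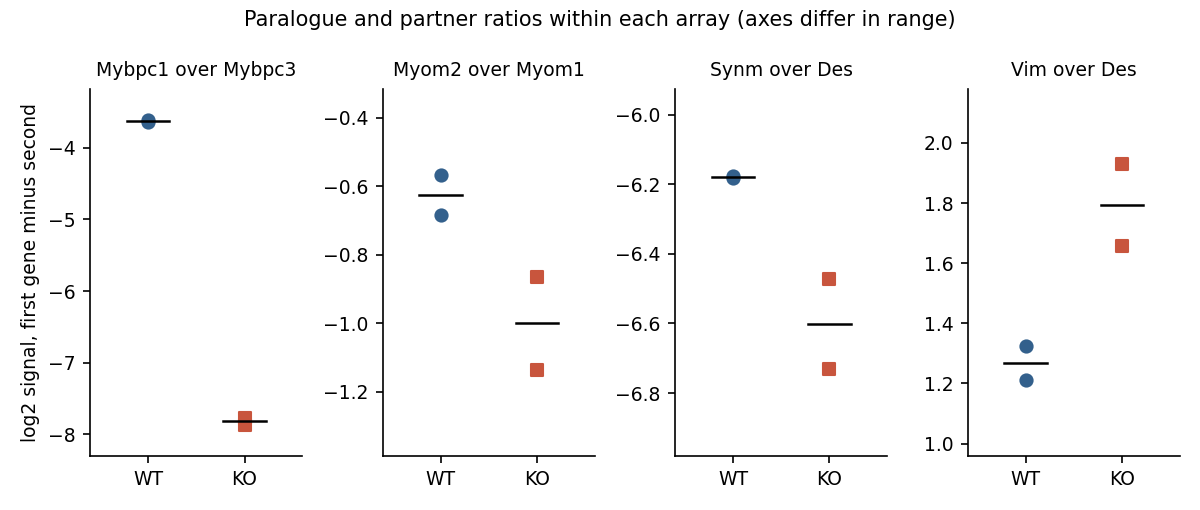
Log2 signal of the first gene minus that of the second on each array, with WT arrays as circles, KO arrays as squares and lines at the group means (each panel has its own axis range). The Mybpc1 to Mybpc3 ratio drops from about -3.61 and -3.64 to -7.87 and -7.77, while the other 3 ratios differ by 0.52 or less.

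Among other genes that bind myosin or sit at the M-band, 1 was called. On this list of 17 genes, 15 were on the array under 1 symbol and 14 were tested, of which 1 was called lower and 0 higher, where 0.815% and 0.481% of all tested genes were. The called gene was Trim54, a muscle RING-finger protein that binds microtubules and the sarcomere. It read 143 and 105 in the WT pools against 46.8 and 44.2 in the KO pools (-1.43 ± 0.25, adjusted p = 0.0105 in limma), with 1 of the KO arrays Absent. Trim54 is also made in skeletal muscle, and the part of that marker list in its fall was not tested. Next by p at their brightest probe sets were Smyd1, a methyltransferase needed for sarcomere assembly (-0.19 ± 0.10), the small ankyrin gene Ank1 (-0.24 ± 0.14) and Unc45b, the myosin chaperone (0.16 ± 0.10), none past the threshold. A dimmer Smyd1 probe set read 205 and 230 in the WT pools against 162 and 96.9 in the KO pools, a difference of -0.79 ± 0.23 that also missed it (adjusted p = 0.115 in limma). The titin gene Ttn, which spans from Z-disc to M-band, differed by -0.026 ± 0.081. The median of the list was -0.027, beside 0.035 over all tested genes. Leaving out WT replicate 1 ended the call of Trim54 (-1.21, adjusted p = 0.113).

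Among other intermediate filaments and the proteins that anchor them, 20 of 25 genes were tested. Of these, 1 was called lower and 0 higher, where 0.815% and 0.481% of all tested genes were. Jup, plakoglobin of the desmosome and adherens junction, read 791 and 655 in the WT pools against 480.2 and 454 in the KO pools (-0.62 ± 0.13, adjusted p = 0.0382 in limma). Its KO arrays were both below its WT arrays, but leaving out WT replicate 1 ended the call (-0.49, adjusted p = 0.367), as did leaving out KO replicate 2 (-0.58, adjusted p = 0.0852). The linker Plec read 1387 and 1206 in the WT pools against 1159 and 816.5 in the KO pools (-0.41 ± 0.15), Dtna, a partner of dystrophin that binds synemin, differed by -0.47 ± 0.18, and Utrn, the dystrophin relative, by 0.37 ± 0.14, none past the threshold. Dsp, the desmoplakin that ties desmin to the desmosome, differed by -0.11 ± 0.094 at its brightest probe set. A dimmer Dsp probe set, Present on all arrays, read 114 and 118.5 in the WT pools against 67.9 and 63.7 in the KO pools (-0.82 ± 0.22, adjusted p = 0.0931), so its probe sets differ in size of difference and none passed. Of the 20, 5 were at an unadjusted p under 0.05, where 15.6% of all tested genes were, and the median was -0.11. Prph, Gfap and Nefl, filament genes of nerve and glia, were among the 5 not tested.

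**Figure D5:**
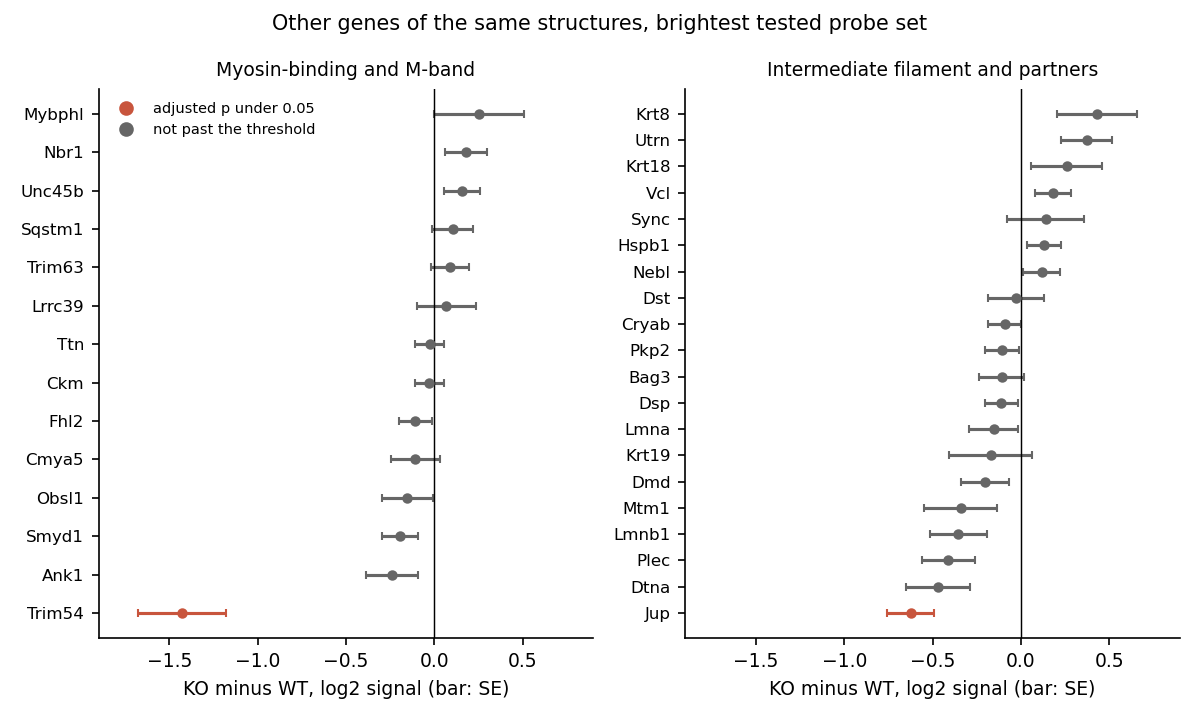
KO minus WT difference in log2 signal (bars: moderated SE) at the brightest tested probe set of 14 genes of the myosin-binding and M-band list (left) and 20 of the intermediate filament list (right). Only Trim54 at -1.43 and Jup at -0.62 pass the threshold, and the other points lie around 0.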

How the data were processed

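The authors deposited a MAS5 signal per probe set, a linear intensity of 1 colour, computed by MAS5, per the submitters' processing notes, whose version and settings are not stated. The 2%-trimmed mean was 150 on every array, so scaling changed nothing, and the series table held the same values. Per the file headers, a detection p-value accompanies each signal and sets its Present, Marginal or Absent call. The 64 control probe sets of 45101 were dropped. By the platform annotation, 34945 probe sets name 1 gene, 932 several and 9160 none. Of those with 1 gene, 34741 matched a mouse gene table (GRCm38.p6) by gene identifier and took its symbol. Its gene coordinates were used to cut the printed promoter stretches, and its chromosomes were read for the members.

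Signals under 0.1 were set to 0.1, log2 was taken, and the 19065 probe sets Present on both arrays of a group were fitted with limma 3.58.1 (lmFit, eBayes with a variance trend) in R 4.3.3, genotype being the sole factor. Two-sided p-values were adjusted by Benjamini-Hochberg over all of them, with a threshold of 0.05. The fit was tested on simulated data. Where a group had no Present call, "at least" folds set the brighter mean against the higher of the dim signal and the lowest Present signal of each array. They take no account of the spread between arrays. Named are all 9 members, called genes of the 2 pathway lists and up to 4 more of each by p, and the 5 genes nearest in pattern to each of 3 members; others, such as Ttn, Dsp, Tnnt1, Myod1, Myog, Prph, Gfap, Nefl, Xist, Eif2s3y and the fibroblast genes, were named after their values were seen. Members and lists were chosen with earlier results of these data known. The labels do not say whether pools shared animals, so p-values measure only the spread between these pools, and the number of arrays limits the precision. Alternatives were other normalizations, offsets, filters, variance models, a replicate block, the series table and leaving out each array. The series table held the same values and could change nothing. Filters, variance models and the block can change the p-value of a difference but not the difference itself.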

Additional observations from a re-analysis of the deposited data

How the results depend on the processing

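Of 19065 probe sets tested, 256 were called in limma, 37 without a filter on detection, 23 without a variance trend and 163 to 650 with 1 array left out (163 without WT replicate 1, 650 without KO replicate 1). Member probe sets called were 2, or 1 without a variance trend and 1 with Present calls required on all 4 arrays, and 2 to 4 with 1 array left out (4 without KO replicate 1, of Mybpc1, Myom2 and Des). The myosin-binding and M-band list had 1 call, or 0 without a filter, without a trend and with Present calls required on all 4 arrays (where Trim54 was not tested), and 0 to 1 with 1 array left out. The intermediate filament list had 1 call, 0 without a filter and 0 without a trend, and 0 to 3 with 1 array left out (Lmnb1 and Plec added without KO replicate 1). These are adjusted calls in limma; at an unadjusted p under 0.05, with the trend and filter, the lists had 1 and 5 genes.

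The replicate numbers in the titles gave 2 pairs, whose deviations correlated at -0.011 over the tested probe sets. With only 2 pairs, this value cannot tell whether the samples were paired. With the replicate block, 721 probe sets were called, member calls were 5 (adding Des, adjusted p = 0.0424, and 2 of Myom2, 0.00858 and 0.0476) and the intermediate filament list had 2. Signs turned for Mybpc3 (-0.028 to 0.0045 with 1 array left out) without WT replicate 2 (0.0016) and KO replicate 2 (0.0045), for Myom1 (-0.053 to 0.11) with median centring (-0.0047) and without KO replicate 1 (-0.053), for Vim at 1456292_a_at (-0.15 to 0.048) without WT replicate 1 (0.048) and KO replicate 1 (0.041), and for the Synm to Des ratio with 64 added (0.077). The ratio of Mybpc1 to Mybpc3 ranged from -4.25 to -4.15 with 1 array left out, that of Myom2 to Myom1 from -0.51 to -0.24, that of Synm to Des from -0.55 to -0.29 and that of Vim to Des from 0.39 to 0.66. The causes were not tested.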
